A study of Mus musculus with 4 samples.

Results

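Among cells sorted from mouse ankle synovium so as to leave neutrophils out, 75 of 14451 kept cells carried the RNA of neutrophils. The cells were chosen by their RNA: a cell was counted as a neutrophil when S100a8 and S100a9, which encode the paired calcium-binding proteins of calprotectin, made up at least 3% of its gene UMIs (unique molecular identifiers, each a counted RNA molecule). At least 2 of 6 further neutrophil genes also had to be detected: Csf3r (the G-CSF receptor), Retnlg (a resistin-like secreted protein), Cxcr2 (the receptor for neutrophil-attracting chemokines), Il1r2 (the interleukin-1 decoy receptor), Mmp9 and Mmp8 (granule metalloproteinases). Cells with fewer than 300 genes or over 10% mitochondrial UMIs had been left out. The rule found 42 neutrophils at baseline, 26 at peak, 2 at plateau and 5 at resolution. Since measured RNA chose these cells, their RNA against that of other cells is given as a description with no test. The antibody counts of the same cells took no part in the choice and were tested.

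The cells came from CD45.1 B6 to CD45.2 B6 bone marrow chimeras, that is, CD45.2 hosts given CD45.1 marrow, with the ankle protected during irradiation so that host cells there could persist beside donor cells. Arthritis was induced with serum of K/BxN mice given behind the eye (serum-transfer arthritis, STIA), and 1 library was made at each of 4 stages: before serum on day 0 (baseline, treatment given as none), on day 7 (peak), on day 14 (plateau) and on day 56 (resolution). The sort took live CD45-positive, CD11b-positive cells and removed those bearing CD177, Ly6C, CD64, SiglecF, Ly6G or MHC class II, and RNA and 92 antibodies with DNA tags were counted in the same cells (CITE-seq). How many mice went into a library is not stated in the labels. Titles at peak, plateau and resolution carry Clo-lip, which no other label explains, so whatever it stands for cannot be told apart from arthritis itself. With 1 library a stage, stages are compared by size alone. All intervals are 95% intervals that cover counting error and not differences between mice or libraries.

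Neutrophils are made in bone marrow in a fixed order. Dividing precursors first make the primary (azurophil) granule enzymes such as neutrophil elastase, proteinase 3 and myeloperoxidase, then switch these off and make the secondary granule proteins such as cathelicidin, neutrophilic granule protein and lactoferrin, and mature cells stop dividing and stop both. Mature neutrophils carry Cxcr2, bear Ly6G on their surface and make interleukin-1 beta and chemokines on contact with immune complexes. In joints of mice given K/BxN serum they are known as the cells that enter first and in the largest numbers.

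The surface of these cells was read through the 15-base DNA tags of the antibodies. The tags on which the results turn are shown as read from the deposited list, 5′ to 3′: those of 2 markers used in the sort, of the 3 antibodies that stood out on neutrophils and of the 2 CD45 alleles.
Ly6G: acattgacgcaacta
CD11b: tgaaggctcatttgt
CD43: ttggagggttgtgct
CD106: cgttcctacctacct
CD357: ggcactctgtaacat
CD45.1: cctatggacttggac
CD45.2: caccgtcattcaacc

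Neutrophils made up 3.92% of the kept baseline cells (42 of 1071, interval 2.84 to 5.26%). They made up 0.438% at peak (26 of 5941, 0.286 to 0.641%), 0.0707% at plateau (2 of 2828, 0.0086 to 0.255%) and 0.108% at resolution (5 of 4611, 0.0352 to 0.253%). The baseline interval lay above those of the 3 arthritis libraries, and baseline held 56% of the neutrophils although its library had the fewest kept cells. These are shares of a population sorted against neutrophils, so they do not give the share of neutrophils in the joint, and a different passage of the gate at each stage cannot be told apart from a different number of cells. Requiring 3 of the 6 further genes lowered the baseline share to 2.33%, and leaving out neutrophils with over 3 of 8 monocyte genes (below) lowered it to 2.09%.

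The threshold fell in a thinly filled range. The lowest S100a8 and S100a9 sum of any neutrophil was 5.58% at baseline, 3.20% at peak, 12.9% at plateau and 4.86% at resolution. The highest sum below the threshold among cells with 2 of the 6 genes was 2.81%, 2.98%, 2.76% and 1.26%. A further 13 baseline cells passed 3% with fewer than 2 of the 6 genes, and all 13 had at least 1% of their UMIs from Camp and Ngp. Peak had 2 such cells, plateau 0 and resolution 4. The 6 genes are mostly those of mature neutrophils, so the rule passes over some cells with granule RNA.

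The 4 libraries held 12015315 to 59816482 gene UMIs and 2214675 to 6723223 antibody UMIs, in 1071 to 5941 kept cells each of 15501 barcodes in all. Pairs of libraries shared 1 to 10 cell barcodes, and 0 neutrophils were among them. No doublet caller was run on these cells. Most other cells were of the monocyte lineage: 11922 cells with at least 3 of 8 monocyte and macrophage genes (among them Csf1r, Cx3cr1, Ccr2, Adgre1, C1qa, C1qb and Lyz2) and under 1% S100a8 and S100a9 serve below as reference cells.

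At baseline the most abundant RNAs after S100a9 and S100a8 were those of neutrophil granules. Camp (cathelicidin) stood at 60289 counts per 1000000 gene UMIs (CPM) in baseline neutrophils against 24.1 CPM in baseline reference cells, and Ngp (neutrophilic granule protein) at 44792 against 16.4 CPM. Lcn2 (lipocalin 2, an iron-chelator carrier of secondary granules) stood at 10671 against 13.6 CPM. At peak Camp and Ngp also ranked next after S100a9 and S100a8, with all their UMIs in 6 of 26 cells. The resolution cell without Camp and Ngp was the least neutrophil-like by these measures, with 4242 UMIs, no UMI of Cxcr2 or Retnlg and no Ly6G antibody.

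Markers of most other cell types were at or near 0. All 7 erythroid genes had no UMI in any neutrophil, and neither had 6 of 8 dendritic cell, 6 of 7 T cell, 5 of 7 B cell, 5 of 7 NK cell, 4 of 7 eosinophil and 6 of 9 basophil and mast cell genes. The summed level of the B cell list was at most 20.5 CPM in any library and that of the T cell list at most 4.08 CPM. The endothelial list summed to at most 19.6 CPM, the eosinophil list to at most 9.38 CPM and the dendritic cell list to at most 4.90 CPM. The platelet list (Ppbp and Itga2b at 0) reached at most 52.6 CPM and the fibroblast list (Pdgfra at 0) at most 69.4 CPM. The NK cell list summed to 348 CPM at peak and 347 CPM at resolution, all of it from Nkg7, a gene of cytotoxic granules. The basophil and mast cell list reached 655 CPM at peak, with Cpa3, Fcer1a, Ms4a2, Gata2, Prss34 and Cd200r3 at 0 and 635 CPM of the sum from Hdc (histidine decarboxylase, which neutrophils can make too).

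Monocyte and macrophage RNA was the exception. From baseline to resolution the macrophage list summed to 936, 836, 52.6 and 394 CPM in neutrophils against 5639, 4275, 5692 and 6767 CPM in reference cells, with Mertk at 0. The classical monocyte list, which shares Chil3 with neutrophils, summed to 4889, 4138, 11366 and 4559 CPM against 3620, 5196, 4284 and 2755 CPM. The nonclassical list summed to 753, 471, 526 and 657 CPM against 1560, 441, 441 and 908 CPM. Over 3 of the 8 monocyte and macrophage genes were detected in 28 neutrophils, 20 at baseline, 5 at peak, 0 at plateau and 3 at resolution. Some ratios within granule-making cells and between the states at peak are given both with and without these 28 cells, and the rest only with them. Leaving the cells out was a choice made after seeing the data. The part that doublets or free RNA have in these cells was not tested.

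The neutrophils fell into 2 sharply separate states by Camp and Ngp. In 52 cells these 2 genes made up at least 2.04% of the gene UMIs, and the other 23 cells had no UMI of either. The first are called granule-making neutrophils below. The split was drawn after seeing the data and is a description. Granule-making cells numbered 41 of 42 at baseline, 6 of 26 at peak, 1 of 2 at plateau and 4 of 5 at resolution. Cells without Camp and Ngp were 1, 20, 1 and 1. The baseline neutrophils were thus nearly all granule-making, and most of those at peak were not.

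**Figure D1:**
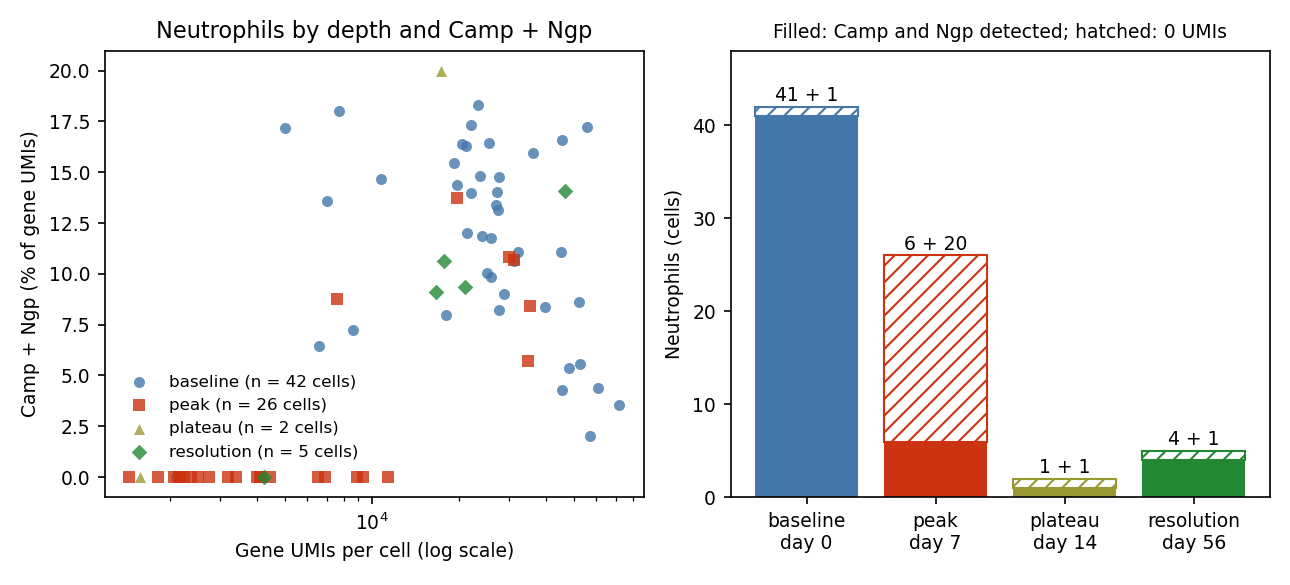
Left, each of the 75 neutrophils by its gene UMIs (log scale) and the percentage of them from Camp and Ngp, with stage by colour and symbol. Right, the number of neutrophils in each library, filled for granule-making cells and hatched for cells with no Camp or Ngp UMI: 41 and 1 at baseline, 6 and 20 at peak, 1 and 1 at plateau, 4 and 1 at resolution. No cell lies between 0 and 2.04%.

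The states also differed in depth. Granule-making cells had a median of 25982 gene UMIs at baseline (5030 to 72019) and 30453 at peak (7609 to 35317), while the 20 peak cells without Camp and Ngp had a median of 3295.5 (1450 to 11390). The other kept cells had medians of 4910.5 to 8257 UMIs by library. The rule asks for 2 of 6 further genes, which shallow granule-making cells may not show. Thinned to 1400 UMIs, the baseline granule-making cells showed each of these 6 genes in at most 13 of 41 cells. The part of the rule in the difference in depth was not tested. With every cell thinned to 1400 UMIs, Camp was detected in 41 of 41 granule-making cells at baseline and 6 of 6 at peak, and in 0 of 20 of the others at peak. Camp and Ngp had drawn the split, so this outcome was set by it and is no check on depth. At 1400 UMIs Camp was found in 3.13% of baseline reference cells and 0.256% of peak reference cells. The 6 granule-making peak cells supplied 64.8% of all gene UMIs of the peak neutrophils, so sums over peak neutrophils mix both states.

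RNA of cell division followed the same split, between cells of unlike depth. UMIs of Mki67, Top2a, Birc5, Cdk1 or Ube2c, genes of dividing cells, were found in 35 of 41 granule-making cells at baseline, 6 of 6 at peak and 4 of 4 at resolution, and in 0 of 20 peak cells without Camp and Ngp. Within peak, all 12 compared genes of the cell cycle list were at least 2-fold lower in the cells without Camp and Ngp. Of these 12, 9 had 0 UMIs in 1 state and were compared only through the other, so the count is a description. The median log2 ratio of the 12 was -5.69, or -3.24 with a count of 0 set to 3 counts over the group. It was -0.15 over the 1550 genes compared. At least 2-fold lower were 29.5% of those genes. Stmn1 (stathmin, a microtubule regulator of dividing cells) had 0 UMIs in the 20 cells against 1131 CPM in the 6, at least 32.4-fold lower.

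Granule-making neutrophils differed by stage in which granule genes they carried. At peak, primary granule RNA was far higher and lactoferrin RNA far lower than at baseline. The promoters of 2 secondary and 2 primary granule genes are shown because Ltf was lower and Elane and Prtn3 were higher at peak, while Ngp, another secondary granule gene, was under 2-fold apart. Each is the 250 bases before the transcription start, 5′ to 3′, from RefSeq on GRCm38.p6. Capitals mark matches on either strand to TTGCNNAA, a short form of the site bound by C/EBP factors, or to GAGGAA, a form of the purine-rich core bound by PU.1.
Ngp (chr9:110419558-110419807, plus strand): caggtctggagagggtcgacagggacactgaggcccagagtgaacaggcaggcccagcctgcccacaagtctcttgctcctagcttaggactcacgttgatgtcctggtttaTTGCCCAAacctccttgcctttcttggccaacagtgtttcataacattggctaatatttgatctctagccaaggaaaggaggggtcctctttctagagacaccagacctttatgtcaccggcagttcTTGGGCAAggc
Ltf (chr9:111019042-111019291, plus strand): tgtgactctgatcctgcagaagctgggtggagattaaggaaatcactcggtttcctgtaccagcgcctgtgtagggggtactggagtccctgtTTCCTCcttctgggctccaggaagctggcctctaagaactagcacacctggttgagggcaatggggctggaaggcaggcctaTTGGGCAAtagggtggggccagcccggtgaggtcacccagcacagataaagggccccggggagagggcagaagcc
Elane (chr10:79886062-79886311, plus strand): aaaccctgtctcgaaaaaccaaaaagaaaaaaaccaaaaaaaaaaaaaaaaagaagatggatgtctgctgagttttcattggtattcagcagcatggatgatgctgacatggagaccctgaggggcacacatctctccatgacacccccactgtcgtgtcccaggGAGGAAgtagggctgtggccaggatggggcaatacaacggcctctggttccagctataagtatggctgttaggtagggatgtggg
Prtn3 (chr10:79879417-79879666, plus strand): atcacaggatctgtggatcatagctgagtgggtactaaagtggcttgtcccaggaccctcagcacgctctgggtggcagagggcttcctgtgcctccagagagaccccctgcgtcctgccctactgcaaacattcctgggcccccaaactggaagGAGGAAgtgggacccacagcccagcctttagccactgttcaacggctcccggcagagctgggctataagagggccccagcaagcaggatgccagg

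Ngp held 2 matches to TTGCNNAA, 138 and 11 bases before its start. Ltf held 1, 75 bases before its start, and 1 to GAGGAA at 157 bases. Elane held 1 match to GAGGAA at 85 bases and Prtn3 1 at 95 bases, and neither matched TTGCNNAA in this window. Mpo held 2 matches to GAGGAA, at 247 and 224 bases, and Camp held none of either. Of 32851 RefSeq windows of the same length, 9.56% matched TTGCNNAA and 23.3% matched GAGGAA, so such matches are common and only describe the letters.

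Elane (neutrophil elastase), Prtn3 (proteinase 3) and Mpo (myeloperoxidase) together made up 0.250 to 3.24% of the gene UMIs of the 6 peak granule-making cells, with a median of 2.04%. In the 4 resolution cells the sum was 0.371%, 0.441%, 1.12% and 1.26%. In the 41 baseline cells it ran from 0 to 0.154% with a median of 0.0047%. The single plateau cell had 0.0115%. Each peak and resolution cell thus lay above every baseline cell. Reference cells carried Elane at 31.6, 1.29, 0.151 and 9.19 CPM from baseline to resolution.

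**Figure D2:**
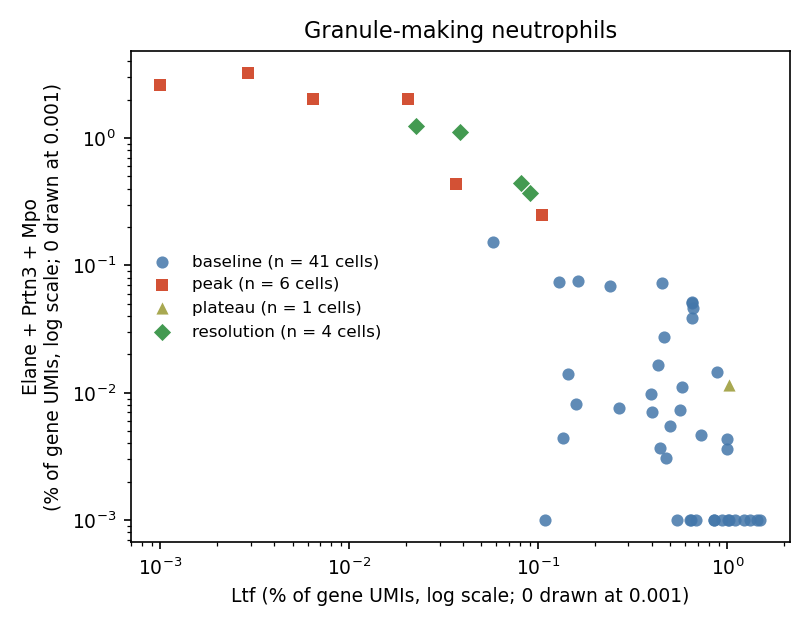
Each granule-making neutrophil by Ltf (horizontal) and by Elane, Prtn3 and Mpo together (vertical), as percentages of its gene UMIs on log axes, with 0 drawn at 0.001. The 6 peak and 4 resolution cells sit above 0.249% on the vertical axis and the 41 baseline cells at or below 0.154%.

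Summed over cells, Elane stood at 11628 CPM in peak and 72.8 CPM in baseline granule-making cells, 159-fold higher (129 to 199.96). Prtn3 stood at 7451 against 152 CPM, 48.9-fold higher (41.9 to 57.5). Mpo stood at 1308 against 3.27 CPM, with 207 UMIs in 6 of 6 cells against 4 UMIs in 1 of 41. Ctsg (cathepsin G, another serine protease of these granules) stood at 430 against 4.09 CPM, 96.3-fold higher (42.9 to 334). Smaller differences were seen for Ms4a3, a marker of granulocyte and monocyte progenitors (1156 against 193 CPM, 6.00-fold, 4.91 to 7.30), and Serpinb1a, an inhibitor of these proteases (2351 against 706 CPM, 3.33-fold, 2.94 to 3.77). At least 2-fold higher were 6 of the 7 compared members of the primary granule list, where 9.66% of 5364 genes were. Their list median was 5.61 against 0.02 over all genes on the log2 scale. The exception was Ctsc (cathepsin C, which activates the proteases), with 2 UMIs at peak and 158 at baseline, a baseline level 8.20 times the peak level (2.78 to 85.1).

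Lactoferrin, encoded by Ltf and made late in secondary granule formation, went the other way. It made up a median of 0.633% of the gene UMIs of baseline granule-making cells (0.0577 to 1.49%) and was found in 41 of 41. At peak the median was 0.0134% (0 to 0.105%) and at resolution 0.0595% (0.0224 to 0.0898%), while the plateau cell had 1.03%. The peak range overlapped the baseline range at its lowest cells. Summed, Ltf stood at 164 CPM at peak and 4830 CPM at baseline, 28.8-fold lower (20.04 to 45.04). The plateau cell, with high Ltf and almost no primary granule RNA, resembled the baseline cells in both measures, and the 4 resolution cells resembled those of peak.

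Other secondary granule genes moved less. Camp stood at 66868 CPM in peak and 60393 CPM in baseline granule-making cells, and at 111513 CPM in the plateau and 88091 CPM in the resolution cells. Ngp stood at 27174 against 44869 CPM and Chil3 (a chitinase-like protein) at 3766 against 3347 CPM. Lcn2 was 2.02-fold lower at peak (1.89 to 2.17) and Lyz2 (lysozyme) 5.74-fold lower (5.05 to 6.58). Of the 12 secondary granule genes, 3 were at least 2-fold lower, Ltf, Lcn2 and Lyz2, and 0 higher, where 17.9% of all genes compared were at least 2-fold lower. Fcnb (ficolin B, a lectin of early granules) was 2.10-fold higher (1.79 to 2.45), and Cebpe, the transcription factor needed for secondary granules, stood at 531 against 314 CPM, 1.70-fold (1.32 to 2.15). None of the 14 cell cycle genes was 2-fold apart between the stages, with a median log2 ratio of 0.49.

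Without the cells with over 3 monocyte genes, Elane, Prtn3, Mpo and Ltf kept their directions at like size. That left 21 granule-making cells at baseline and all 6 at peak. Elane was then 128-fold higher at peak (95.7 to 179), Prtn3 49.9-fold (39.5 to 64.8) and Ltf 42.2-fold lower (29.3 to 65.9). Mpo, with 0 UMIs in the 21 baseline cells, was at least 209-fold higher. Of the primary granule list, 6 of 7 were again higher (median log2 ratio 5.52 against 0.29 over 2858 genes), where 16% of genes were. Of the secondary list, 4 of 12 were lower, where 7.42% were, as Ngp had now passed 2-fold (2.42-fold lower, 2.35 to 2.50). Of the tertiary and secretory granule list, which holds Fcnb, 0 of 8 compared genes were then at least 2-fold higher. All the cells of a stage came from 1 library, so differences between mice, and whatever Clo-lip stands for, cannot be told apart from it.

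Genes of monocytes and macrophages were among those with the lowest ratios. They included Cd74 (the MHC class II invariant chain), Ms4a6c and Ifi30, each with 0 UMIs in the 6 peak cells and with 1108, 486 and 330 UMIs at baseline. They were detected in 24, 23 and 23 of the 41 baseline cells. Of 5364 genes, 959 were at least 2-fold lower at peak, or 702 with a count of 0 set to 3 counts. Without the cells with over 3 monocyte genes 212 of 2858 were lower and 456 higher.

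The neutrophils without Camp and Ngp had the RNA of mature, activated cells. In the 20 such cells of the peak library Cxcl2 (a chemokine for neutrophils) stood at 21454 CPM and was detected in 20 of 20 cells, against 82.2 CPM in the 6 granule-making cells and 2559 CPM in peak reference cells, 252-fold higher than in the former (152 to 491). Il1b (interleukin-1 beta) stood at 15211 CPM against 126 and 3140 CPM, 117-fold higher than in granule-making cells (77.6 to 198). It was detected in 19 of 20 cells, with 0 to 296 UMIs a cell and a median of 48. Cxcl2 ran from 1 to 261 UMIs a cell with a median of 52.5. Both genes were thus detected in nearly every one of these cells, at levels that varied widely. The median depth of these cells was far below that of the granule-making cells.

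The receptors of mature neutrophils followed. Cxcr2 stood at 850 CPM (19 of 20 cells) against 6.32 CPM in granule-making cells (1 UMI) and 0.351 CPM in reference cells, and Il1r2 at 2062 against 202 and 93.6 CPM. These 2 and Csf3r (594 against 56.9 CPM), Retnlg (4391 against 133 CPM) and Mmp9 were among the genes of the selection rule, so their presence is no finding, although the rule did not ask for any one of them. Fpr1, a receptor for bacterial formyl peptides, had 22 UMIs in the 20 cells and 0 in the 6, at least 13.5-fold higher. C5ar1, the receptor for complement C5a, was 8.67-fold higher (4.87 to 17.7) and Ccrl2, a chemerin-binding receptor, 9.21-fold (5.90 to 15.6). Of 8 compared chemoattractant receptors 7 were at least 2-fold higher, where 26.5% of 1550 genes were, and 1 of the 7 was Cxcr2.

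Of the 19 genes of the cytokine and chemokine list, 11 had enough UMIs to be compared, several of them only through the group where they were high, so their count is a description. All 11 were at least 2-fold higher in these cells, with a median log2 ratio of 7.46, or 5.64 with a count of 0 set to 3 counts, where 26.5% of genes were. Ccl3, a chemokine for monocytes and neutrophils, had 73 UMIs against 0, at least 44.8-fold higher, and Il1rn, the interleukin-1 receptor antagonist, had 51 against 0, at least 31.3-fold higher. Ccl4 stood at 1887 CPM against 6.32 CPM, Ptgs2 (cyclooxygenase 2) at 885 against 6.32 CPM and Tnf at 466 against 6.32 CPM, each with 1 UMI in the granule-making cells. The corresponding counting intervals were 52.8 to 11864-fold for Ccl4, 24.4 to 5604-fold for Ptgs2 and 12.5 to 2984-fold for Tnf.

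Signalling groups are described in the same way, beside the 26.5% of genes that were higher. All 7 compared of 14 NF-kB feedback genes were at least 2-fold higher, among them Nfkbia, the inhibitor that NF-kB induces to limit itself (4542 against 392 CPM, 11.5-fold, 8.85 to 15.4). All 6 compared of 14 genes of the survival and death list were higher, among them Mcl1, on which neutrophil lifespan depends (3005 against 651 CPM, 4.603-fold, 3.66 to 5.86). All 10 compared of 25 interferon response genes were higher (median log2 ratio 5.61, or 4.64 with a count of 0 set to 3 counts), among them Ifitm2 (6476 against 657 CPM, 9.81-fold, 7.98 to 12.3) and Isg15, detected in 10 of 20 cells. Isg15 stood at 1514 CPM against 12.6 CPM in granule-making cells and 726 CPM in reference cells. All 6 compared of 12 Fc receptor and signalling genes were higher, among them Clec4e (Mincle, a receptor for damaged cells and fungal glycolipids, 20.9-fold, 13.1 to 37.6) and Clec4d (45.7-fold, 19.4 to 191). Of 14 compared immediate-early and dissociation stress genes 10 were higher, among them Junb (3028 against 310 CPM, 9.70-fold, 7.18 to 13.6), and the part of tissue dissociation in these levels was not tested.

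Other groups were mixed between the peak states, where 26.5% of genes were higher and 29.5% lower in the cells without Camp and Ngp. Of 12 secondary granule genes 10 were lower and 1, Lyz2, was higher in the cells without Camp and Ngp. Camp and Ngp themselves are among the 10 and were lower by the split itself. Of 7 primary granule genes 6 were lower and 1, Ctsc, higher. Several genes of both lists had 0 UMIs in the cells without Camp and Ngp, so these counts are a description. Of 7 tertiary and secretory granule genes 4 were higher and 2 lower, of 8 cytokine receptors 6 were higher, the rule genes Csf3r and Il1r2 among them, and of 8 adhesion genes 6 were higher, among them Selplg, the P-selectin ligand (9.43-fold, 4.604 to 24.4). Of 7 transcription factors 4 were higher and Cebpe was lower, with 0 UMIs in the 20 cells, at least 15.2-fold. Of 10 hypoxia and glycolysis genes 2 were higher, among them Hif1a (11.5-fold, 5.18 to 35.5), and 1 lower. Of 7 NADPH oxidase genes 1 was higher and 2 lower, counts near or below those shares. Of 6 Siglec and marrow retention genes 5 were higher and 1, Cd63, lower.

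The pattern remained without the 5 of these cells that had over 3 monocyte genes, which left 15 cells. Those 5 were also the deepest of these cells, with 6527 to 11390 gene UMIs against 1450 to 4441 in the 15. Fewer genes could then be compared, 10 of the cytokine list and 7 of the interferon list, so the medians cover different genes. The median log2 ratio was then 7.72 for the cytokine list (6.59 with a count of 0 set to 3 counts), 7.48 for the interferon list (5.11) and 4.65 for the NF-kB list, against -0.72 over the 1257 genes compared. Il1b was then at 18964 CPM and 146-fold higher (96.5 to 247), and Cxcl2 at 30338 CPM and 356-fold higher (215 to 695). Lyz2, a gene of monocytes and neutrophils, was then no higher (1168 against 1466 CPM), and Ctsc had too few UMIs to be compared.

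The other libraries held 1 cell of this state each, and 2 of these 3 carried both cytokine genes. The baseline cell had 52 Il1b and 46 Cxcl2 UMIs among 2104, and 2 of Cxcr2. The plateau cell had 32 Il1b and 135 Cxcl2 UMIs among 1580, and 0 of Cxcr2. The resolution cell had 17 Il1b and 0 Cxcl2 UMIs among 4242. With 1 cell each, no level of the state could be set for these stages.

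**Figure D3:**
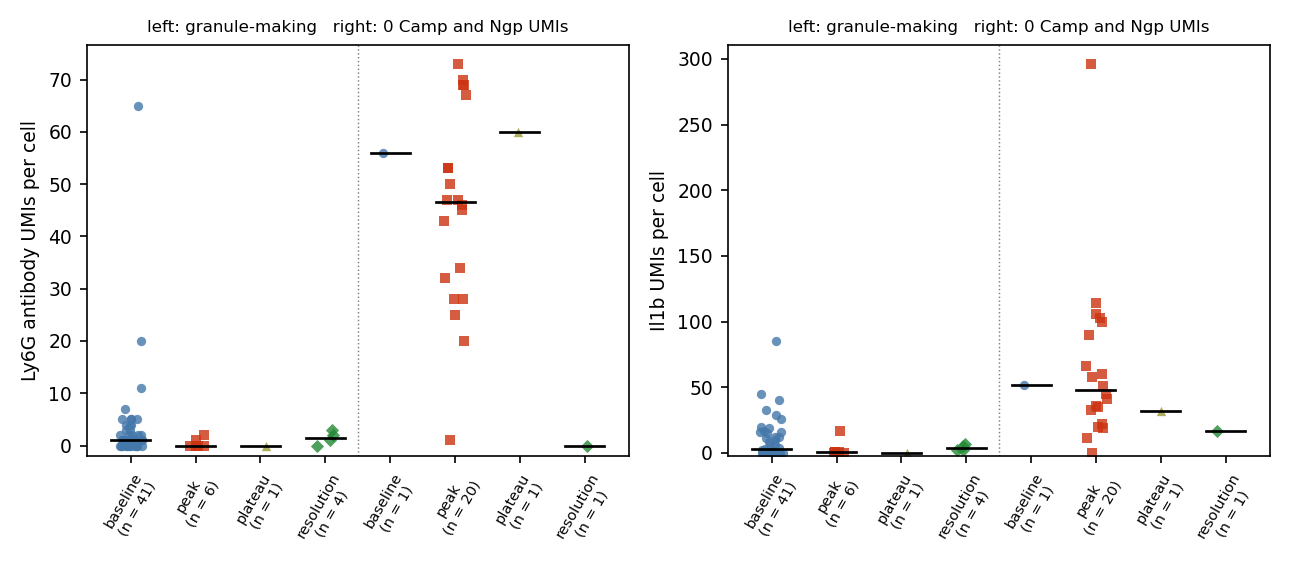
Ly6G antibody UMIs (left) and Il1b UMIs (right) in each neutrophil, with granule-making cells left and cells with no Camp or Ngp UMI right of the dotted line. Points are cells, bars are medians and n is the number of cells. The peak cells without Camp and Ngp have medians of 46.5 Ly6G antibody UMIs and 48 Il1b UMIs, against 0 and 1 in the granule-making peak cells.

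The Ly6G antibody marked the same state, although the sort had been set against Ly6G. At least 20 Ly6G antibody UMIs were found on 19 of the 20 peak cells without Camp and Ngp (1 to 73 UMIs, median 46.5), on 0 of 6 granule-making peak cells (0 to 2 UMIs) and on 7 of 5183 peak reference cells (0.135%). Over all libraries it was 21 of 23 cells without Camp and Ngp, 2 of 52 granule-making cells and 16 of 11922 reference cells. The share of Ly6G among antibody UMIs was 3.26% in the former at peak and 0.104% in peak reference cells. The Ly6g transcript did not follow the antibody: it had 2 UMIs in 1 of 26 peak neutrophils and 30 UMIs in 19 of 42 at baseline, with 23.3 CPM in the peak cells without Camp and Ngp and 24.5 CPM in the granule-making baseline cells. Cd177, whose protein the sort also selected against, was detected in 41 of 42 baseline neutrophils at 378 CPM and in 8 of 26 at peak at 94.2 CPM.

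Other surface proteins also differed between the states at peak. CD43 (leukosialin) took 57.8% of the antibody UMIs of the 6 granule-making cells and 12.8% of those of the 20 other neutrophils, close to the 13.3% of reference cells. CD71 (the transferrin receptor, borne by dividing cells) took 4.53% and 0.416%, and CD106 (VCAM-1) 1.54% and 0.0326%. CD11b (the integrin alpha M chain) took 16.8% and 43.3%, and CD55 (a complement regulator) 0% and 0.782%. The granule-making cells were thus high for CD43, CD71 and CD106, and the others for CD11b, Ly6G and CD55. The RNA of CD106, Vcam1, stood at 133 CPM in granule-making cells at peak and 23.71 CPM at baseline.

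Across the 4 libraries, neutrophils of both states together were tested against the other cells of the same library with edgeR's quasi-likelihood test, with Benjamini-Hochberg adjustment over the 54 antibodies tested and the library as a block. Against all other kept cells CD106 rose by 2.87 on the log2 scale (standard error 0.50, adjusted p = 0.0182), CD43 by 2.33 (0.47, 0.0261) and CD357 (GITR, a TNF receptor family member) by 2.33 (0.55, 0.0458). These 3 were 5.56% of those tested. By edgeR 0 were lower (0%), with 16 antibodies at an unadjusted p under 0.05 in either direction, and DESeq2 called 8 higher and 8 lower. Scaling by total antibody UMIs in place of edgeR's TMM moved the median antibody from -0.31 to -1.145 and gave 2 higher and 21 lower, with CD357 at an adjusted p of 0.057. Without the peak library 0 were called in either direction. Directions below are therefore relative to the bulk of the antibodies.

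Against the reference cells, CD106 (log2 3.22, adjusted p = 0.00614), CD43 (2.30, 0.0143), CD357 (2.55, 0.0264) and CD11b (1.02, 0.0387) rose by edgeR's quasi-likelihood test, 7.41% of 54 antibodies. CD43 took 23.6, 25.6, 37.7 and 43.4% of the antibody UMIs of neutrophils from baseline to resolution and 12.8, 13.3, 8.87 and 11.2% of those of reference cells. CD106 took 0.378, 0.462, 0.172 and 0.511% against 0.0426, 0.0518, 0.0553 and 0.202%. Both were higher in 4 of 4 libraries, of which plateau held only 2 neutrophils. At peak, the shares of CD43 and CD106 on the cells without Camp and Ngp, given above, were no higher than those of reference cells. The excess at peak thus lay on the granule-making cells. CD357 took 0.398, 0.153, 0.574 and 0.130% against 0.0521, 0.0717, 0.0708 and 0.141%, higher in 3 of 4. CD11b took 35.5, 35.8, 35.5 and 36.3% against 26.8, 32.1, 31.6 and 36.4%, and with total antibody UMIs as the scale its difference was 0.18 (adjusted p = 0.288). Without the neutrophils with over 3 monocyte genes it was 0.76 (adjusted p = 0.0906).

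Of the antibodies to proteins of monocytes and macrophages, 6 were lower on neutrophils. CD163 (log2 -3.51, adjusted p = 0.0387), FrB (-3.06, 0.0484), CD14 (-2.73, 0.0387), CD115 (-2.20, 0.0484), CD86 (-2.19, 0.0387) and Tim4 (-1.996, 0.0387) fell by edgeR's quasi-likelihood test, 11.1% of the 54. CD163 is a haemoglobin scavenger receptor, CD14 the endotoxin co-receptor, CD115 the CSF1 receptor, CD86 a co-stimulatory protein, and FrB (folate receptor beta) and Tim4 mark resident macrophages. CD115 took 0.0541, 0.114, 0 and 0.026% of antibody UMIs of neutrophils against 0.172, 0.452, 0.940 and 0.782% of reference cells, lower in 4 of 4 libraries. The other 5 were also lower in 4 of 4. Others to such proteins did not pass, among them CX3CR1 (log2 -0.78, adjusted p = 0.242), F4/80 (-0.60, 0.336), CD64 (-0.40, 0.709), CD169 (-0.37, 0.709), CD172a (-0.16, 0.891), CD36 (-0.0107, 0.993), CCR2 (0.0532, 0.965) and Mac-2 (0.12, 0.904). RNA of Csf1r, which encodes CD115, helped choose the reference cells, so the lower CD115 is partly set by that choice. Against all other kept cells CD115 did not pass edgeR's quasi-likelihood test (log2 -2.18, adjusted p = 0.0635). Against reference cells, edgeR called 0 antibodies lower without the baseline, peak or resolution library, and 0 higher without the peak library. With total antibody UMIs 18 antibodies were lower than on reference cells.

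**Figure D4:**
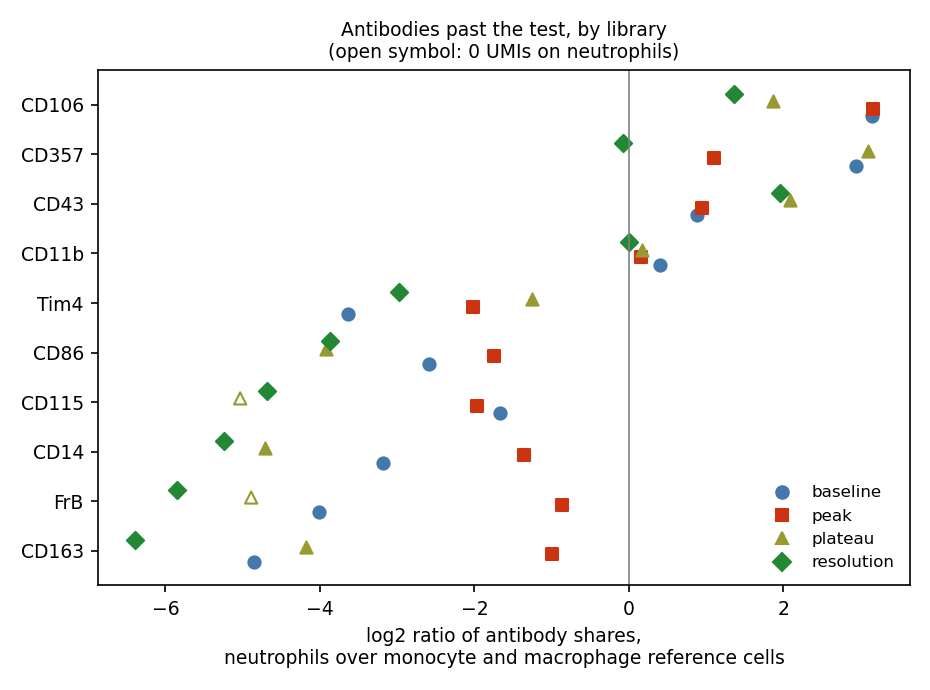
Log2 ratio of each antibody's share of antibody UMIs, neutrophils over monocyte and macrophage reference cells of the same library, for the 10 antibodies past the test, with 1 symbol a library and open symbols where neutrophils had 0 UMIs. CD106 and CD43 lie right of 0 in 4 of 4 libraries, CD357 in 3, and the 6 antibodies that were lower lie left of 0 in all 4.

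Ly6G and Ly6C, 2 of the markers the sort selected against, did not pass. Ly6G stood at log2 3.00 against other kept cells (adjusted p = 0.153) and 3.09 against reference cells (0.128), since neutrophils at resolution took 0.052% against 0.231% of reference cells while those at peak took 2.34% against 0.104%. Without the 28 neutrophils with over 3 monocyte genes it passed, at 3.43 (adjusted p = 0.0189) and 3.54 (0.0129). Ly6C stood at 0.39 (adjusted p = 0.796) and 0.34 (0.783), and its sign turned with the scale. It took 18.5% of antibody UMIs of baseline neutrophils and 26.9% of those of baseline reference cells, in libraries sorted against Ly6C, and 1.38% and 3.24% at peak.

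The CD45 alleles were read on the cells with at least 10 UMIs of the 2 antibodies, calling a cell for an allele at 80% or more. At baseline 17 of 29 such neutrophils were CD45.1, 1 was CD45.2 and 11 carried both. CD45.1 cells were 58.6% (38.9 to 76.5%), against 74.1% of other kept cells. At peak 18 of 22 were CD45.1 (81.8%, 59.7 to 94.8%), 1 was CD45.2 and 3 carried both, against 94.9% CD45.1 in other kept cells. At plateau 1 of 1 was CD45.1, and at resolution 1 of 4 was CD45.1, 1 CD45.2 and 2 both. Called neutrophils of a single allele were thus mostly of the donor allele at baseline and peak. At baseline this rested on cells with over 3 monocyte genes. Among the granule-making baseline cells with at most 3, only 2 were CD45.1 and 1 was CD45.2.

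Cells with both alleles were more frequent among neutrophils than among other cells at baseline, at 37.9% against 5.29%. The granule-making baseline cells with at most 3 monocyte genes had few CD45 UMIs, a mean of 14.0 a cell against 33.8 in reference cells. Of the 9 that could be called, 2 were CD45.1 (22.2%), 1 CD45.2 and 6 both. The 2 CD45 antibodies took 0.645% of the antibody UMIs of granule-making baseline cells against 1.74% of reference cells. The part of doublets and of unbound antibody in the cells with both alleles was not tested.

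Taking all neutrophils together, peak and baseline differed through the change in states as well as within them. Of 5561 genes with at least 20 UMIs, 485 were at least 2-fold higher at peak (8.72%) and 553 lower (9.94%), with a median log2 ratio of 0.07. With edgeR's TMM totals these were 336 and 744, a share of 31.1% higher among those 2-fold apart against 46.7%. Leaving out the neutrophils with over 3 monocyte genes gave 486 higher and 177 lower.

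The highest ratios over all neutrophils included genes of both states. Of the primary granule genes, Mpo was 231-fold higher (99.9 to 962) and Elane 103-fold (83.9 to 130). Ifitm1, an interferon-inducible membrane protein, had 261 UMIs at peak and 3 at baseline, 375-fold (148 to 2131). Acod1, the itaconate-making enzyme of activated myeloid cells, stood at 692 against 6.53 CPM, 100.1-fold higher (52.6 to 249.6). Cstdc4 and Stfa2l1, of the stefin family of protease inhibitors, were 200.2-fold (86.2 to 833) and 34.5-fold higher (23.0 to 55.8). Cxcl2 was 64.9-fold higher (54.9 to 77.7), Ptgs2 40.9-fold (21.5 to 97.4) and Il1rn 30.4-fold (15.1 to 78.1). Asprv1 (a skin and neutrophil protease), Basp1 and Spp1 (osteopontin) were 33.6-, 20.9- and 29.4-fold higher, and Cxcl3 had 71 UMIs against 1. Spp1, also a macrophage gene, was detected in 9 peak neutrophils. Without the cells with over 3 monocyte genes the log2 ratio of Spp1 was 3.27 against 4.88, that of Stfa2l1 3.93 against 5.11, that of Acod1 5.56 against 6.65, that of Cstdc4 6.33 against 7.65 and that of Ifitm1 7.58 against 8.55.

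The lowest ratios were led by Ltf, 44.4-fold lower at peak over all neutrophils (30.9 to 69.4). Hist1h2ap, Hist1h4h and Hist1h2ab, histone genes, were 15.9-, 5.19- and 3.71-fold lower, and Stfa1, another stefin, was 12.95-fold lower (7.68 to 26.2), with all its 12 peak UMIs in 1 cell. Ifitm6 was 4.59-fold lower (3.49 to 6.28), Cd177 3.93-fold (2.64 to 6.39) and Tmsb10 (thymosin beta 10, an actin-binding peptide) 6.63-fold (5.41 to 8.32). Gltp and Grk6 were 3.91- and 3.65-fold lower, and Ly86, a gene of monocytes and B cells, had 2 UMIs at peak and 164 at baseline, a baseline level 13.1 times that of peak (4.45 to 136). Without the cells with over 3 monocyte genes the log2 ratio of Tmsb10 was -1.93 against -2.73 and that of Gltp -1.35 against -1.97, and Ly86 had too few UMIs to be compared.

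By group, 8 of 13 cytokine and chemokine genes were at least 2-fold higher at peak over all neutrophils and 0 lower (median log2 ratio 3.07), where 8.72% of genes were higher and 9.94% lower. The same list had 0 of 10 higher and 6 lower, or 5 with a count of 0 set to 3 counts, within granule-making cells (median -1.62, or -1.07), where 9.66% were higher and 17.9% lower. The interferon list had 10 of 15 higher over all neutrophils (1.35) and 0 of 11 higher with 7 lower, or 4, in granule-making cells. The NF-kB list had 8 of 14 higher and 0 lower (1.10), then 0 of 13 higher and 5 lower, or 4. The primary granule list was higher either way, 6 of 7 with medians of 4.99 and 5.61. With at most 3 monocyte genes a cell, the granule-making cells had 0 of 6 cytokine genes higher and 1 lower (median -0.17), 0 of 6 NF-kB genes higher and 2 lower (-0.25) and 0 of only 3 compared interferon genes higher and 2 lower (-1.16), where 16% of genes were higher and 7.42% lower.

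**Figure D5:**
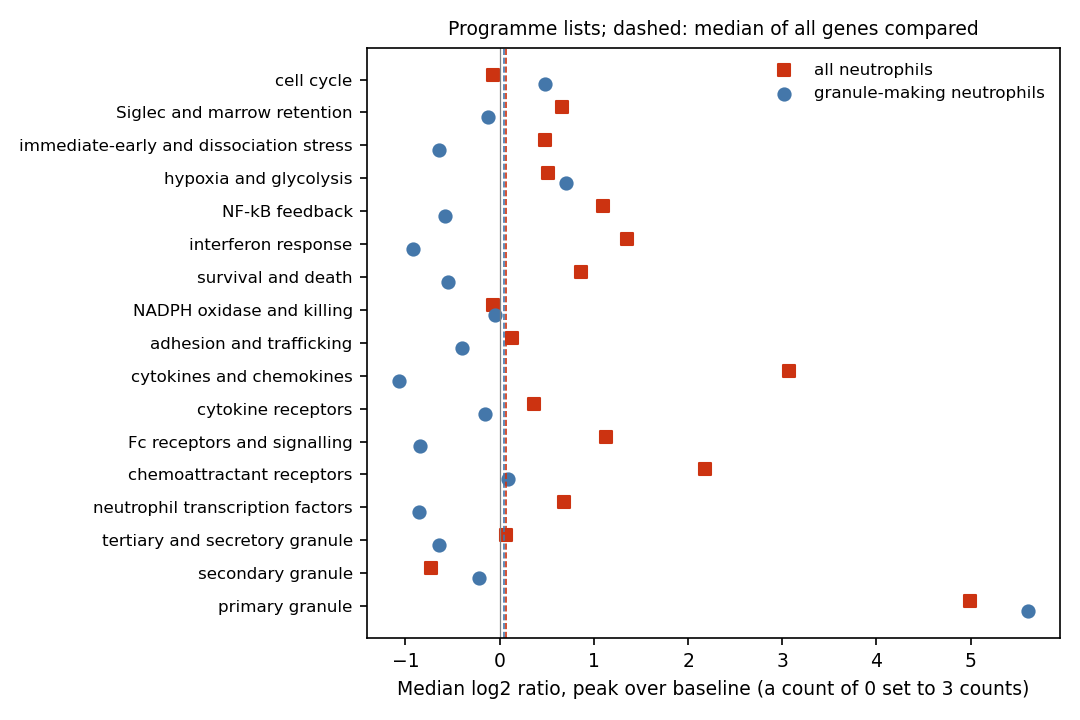
Median log2 ratio of peak over baseline for 17 gene lists, over all neutrophils (squares) and granule-making neutrophils alone (circles), with a count of 0 set to 3 counts and dashed lines at the medians of all genes compared. The primary granule list lies at 4.99 and 5.61, and the cytokine list at 3.07 and -1.07.

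Of the remaining lists over all neutrophils, where 8.72% of genes were higher and 9.94% lower, chemoattractant receptors had 7 of 9 higher (median log2 ratio 2.18), 1 of which, Cxcr2, is a gene of the selection rule. Another was Ccr1 (7.37-fold, 5.43 to 10.1), and Fc receptor genes 5 of 10 higher (1.12). Cytokine receptors had 4 of 12 higher (0.37), including the rule genes Csf3r and Il1r2, and the survival list 5 of 12 higher and 2 lower (0.86), among them Gadd45b, a stress response gene (19.4-fold, 12.7 to 31.6, or a log2 ratio of 3.63 against 4.28 without the cells with over 3 monocyte genes). Transcription factors had 1 of 11 higher, Mxd1, a partner of MAX that opposes MYC (6.07-fold, 4.75 to 7.77). Secondary granule genes had 5 of 12 lower and 0 higher (-0.73), and tertiary and secretory granule genes, a list that holds the rule genes Mmp8 and Mmp9, had 3 of 10 higher and 2 lower (0.06), among them Slpi, a protease inhibitor (3.67-fold higher, 3.16 to 4.27).

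Against the same 8.72% and 9.94%, adhesion genes had 3 of 12 higher and 2 lower, hypoxia and glycolysis genes 2 of 14 higher, immediate-early genes 3 of 15 higher and 1 lower, and Siglec and marrow retention genes 2 of 6 higher. NADPH oxidase and killing genes had 0 of 10 higher and 2 lower, Cybb (the catalytic subunit of the oxidase, 2.23-fold lower, 1.88 to 2.67) and Padi4 (the histone-citrullinating enzyme of neutrophil traps, 3 UMIs at peak and 96 at baseline, a baseline level 5.49 times that of peak, 2.12 to 31.5). Cell cycle genes had 1 of 14 lower, Mki67 (2.12-fold, 1.58 to 2.96). The hypoxia and cell cycle counts are close to the share of all genes. Among the genes of the sorting markers 1 of 10 was higher, Fcgr1 (CD64, 7.45-fold, 3.84 to 15.2). Lower were 5: Cd177, Cd74, H2-Aa, H2-Ab1 and, on 2 peak UMIs (2.43-fold, 0.758 to 25.8), Ly6g. Without the cells with over 3 monocyte genes Cd74 turned to a log2 ratio of 1.03 against -1.12. Cd177 then stayed lower (-1.91 against -1.97), and Fcgr1, H2-Aa, H2-Ab1 and Ly6g had too few UMIs to be compared. Itgam (CD11b) stood at 229 CPM at peak and 252 CPM at baseline.

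The selection rule needs a UMI of 2 of its marker genes whatever a cell's depth, and the peak cells were shallower, so the levels of its genes are a description and are not read as a difference between stages. S100a8 and S100a9 stood at 51295 and 75838 CPM at peak and 91457 and 99080 CPM at baseline, and Mmp8 at 45.06 and 44.9 CPM.

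Of 67 antibodies with at least 20 UMIs, 31 took at least 2-fold more of the antibody UMIs at peak (46.3%) and 12 at least 2-fold less (17.9%), with a median log2 ratio of 0.75. With TMM totals they were 19 and 20, and within granule-making cells 13 and 22. Several shares were higher at peak, or lower, in reference cells as well. CD14 took 0.0121% at baseline and 1.25% at peak in neutrophils and 0.112 and 3.21% in reference cells, and CD86 took 0.163 and 1.28% against 0.983 and 4.28%. CD55 took 0.0208 and 0.560% against 0.0255 and 0.187%, CD71 0.266 and 1.59% against 0.0762 and 0.481%, and Ly6G 0.0944 and 2.34% against 0.0477 and 0.104%. Ly6C took 18.5 and 1.38% in neutrophils and 26.9 and 3.24% in reference cells, and CD90.2 (Thy-1.2) 2.57 and 0.187% against 2.42 and 0.757%. Within granule-making cells alone Ly6C took 18.7 and 1.86%, CD14 0.0122 and 0.255%, CD86 0.163 and 0.538% and CD71 0.269 and 4.53%. Summed over all neutrophils, CD43 and CD11b took nearly the same share at both stages, 23.6 and 25.6%, and 35.5 and 35.8%. The peak sums pool the states, which lay far apart for both antibodies (above). Within granule-making cells CD11b took 35.2% at baseline and 16.8% at peak.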

How the data were processed

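RNA and antibody tags were counted per cell in 4 libraries of sorted synovial cells. The deposited matrices hold raw UMI counts, made with Cell Ranger 6.1.2 on mm10 and with Seurat 4.4.0 listed for no stated step, per the submitters' processing notes; how cells were called is not stated in the labels. The members, gene lists and comparisons were chosen with earlier results of these data known.

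Counts were summed over the neutrophils of a library in Python 3.11.15 (numpy 2.4.6, scipy 1.17.1, pandas 2.3.3) and scaled to CPM (a total of 1000000). Ratios have 0.5 counts added to each sum, need at least 20 UMIs over both sums and have exact conditional intervals. Shares have exact Clopper-Pearson intervals. Where a group had no count, the ratio is a bound from 3 counts over the group. A call between stages means 2-fold and is no test. Antibody counts, at least 10 UMIs in the neutrophil sums of at least 2 libraries, were tested with edgeR 4.0.16 (TMM, R 4.3.3), with DESeq2 1.42.0 as an alternative. Thinned values used 1400 UMIs a cell. The panel, as listed, names no isotype control. The methods were tested on simulated data.

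Named genes are the 12 highest and 12 lowest ratios with at least 100 CPM and detection in 25% of the cells of the higher group, the leading members of each list, the genes of the rule and of the sort, and all antibodies past the test. Mitochondrial, ribosomal, haemoglobin, sex-linked, immunoglobulin, T cell receptor and unnamed genes were left out of the ranking. Genes named in comparisons of the 2 states, or within granule-making cells, were chosen from the same lists after their values were seen, as were Vcam1 and the antibodies compared between states. Results for 3 of the named genes are not reported here.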

Additional observations from a re-analysis of the deposited data

How the results depend on the processing

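Of the values that answer a comparison, 62 alternatives stayed close to the reported value and 40 moved. No paired analysis was possible because each stage has 1 library and the replicate number is the same in all; the antibody tests compare cells within each library and carry the library as a block throughout. Dropping neutrophils with over 3 monocyte genes, counting granule-making cells alone and the split into states were chosen after seeing the data.

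The baseline share was 2.33% with at least 3 of the other markers and 2.09% without cells of over 3 monocyte genes. Against other kept cells, the antibodies higher were 8 with DESeq2 and 5 with no filter, and 0 to 4 when 1 library was left out; those lower were 21 with total antibody UMIs, 8 with DESeq2, 1 with no filter, 6 with S100a8 and S100a9 at 5%, 6 without cells of over 3 monocyte genes and 0 to 5 when 1 library was left out. Against reference cells, DESeq2 gave 8 higher, total antibody UMIs 18 lower and no filter 1 lower, and leaving out 1 library 0 to 4 higher and 0 to 6 lower. Ly6C turned to -0.40 with total antibody UMIs, -0.33 without resolution (highest 0.64, without plateau) and -0.0157 without cells of over 3 monocyte genes, and against reference cells to -0.44, -0.37 (highest 0.58) and -0.0446.

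Genes higher at peak over all neutrophils were 2043 with at least 1 UMI, 207 with at least 50 UMIs and 892 with equal weight to each cell. Genes lower were 1337, 197 and 1275 in the same order, 355 without cells with both CD45 antibodies, 177 without cells of over 3 monocyte genes and 959 in granule-making cells. Antibodies higher at peak were 19 with TMM totals and 13 in granule-making cells; those lower were 20, 22 and, without cells of over 3 monocyte genes, 7. In granule-making cells Stfa2l1 turned to -2.72, Ly6G to -1.15 and CD45.1 to -0.48 on the log2 scale. CD45.1 cells were 22.2% of callable baseline and 0% of resolution neutrophils without cells of over 3 monocyte genes, and 0% at plateau and resolution with calls at 90%. Except where a setting removes cells or genes by construction, the cause was not tested. With 2 and 5 cells, plateau and resolution allow levels alone, and a missing gene in a cell of low depth may be not detectable.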
